A study of Homo sapiens with 36 samples.

Results

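COLO320, a colon cancer line known for amplified copies of MYC, was compared at baseline with 5 other established human colon cancer lines, HCT116, SW480, HT29, COLO205 and HCT15. Its members were the 3 COLO320 libraries kept 24 h in DMSO, of 36 libraries in the series, and they were set against the 15 DMSO libraries of the other lines, 3 per line. A second set of libraries from the same 6 lines, 3 per line, had 0.5 µM JQ1 for 24 h in place of the DMSO solvent and served to measure the same differences again. JQ1 is a small molecule that blocks the acetyl-lysine pocket of BET bromodomain proteins. Cells were in log-phase growth, and the labels name no engineered allele. The labels say neither which COLO320 subline was used nor whether replicates were separate cultures, so each p-value reflects the spread between libraries alone, which may be technical.

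MYC is a transcription factor that pairs with MAX on E-box DNA and is known for driving genes of growth and ribosome production. Amplified copies of a gene can be carried outside the chromosomes or within them, and often bring neighbouring genes along. Colon epithelium is held together by cadherin and claudin junctions over a keratin skeleton, and factors such as CDX2 and HNF4A set its intestinal gene program. COLO320 is often described as neuroendocrine, a class of hormone-secreting cells marked by secretory granule proteins.

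Levels are in RPKM, reads per kilobase of gene, scaled to library size, so levels are per length. Differences are log2(RPKM + 0.5) of COLO320 minus the mean of the 5 other lines, each line weighted equally, and this scale understates differences of low genes. Of 26468 genes, 15145 had an RPKM of at least 1 in 3 or more of the 18 DMSO libraries and were tested with limma. Reads assigned to genes numbered 20.2 to 26.3 M per DMSO library (median 24.4 M). Replicates correlated at r = 0.9966 to 0.9977 across genes. Across these 15145 genes, which are not independent replicates, COLO320 correlated with the other lines at r = 0.688 (COLO205) to 0.795 (HCT15), while the other lines correlated with each other at 0.779 to 0.894.

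COLO320 had 2070 genes higher (13.7% of those tested) and 2405 lower (15.9%) by at least 2-fold at a Benjamini-Hochberg adjusted p under 0.05. A stricter call, here named set apart, asked for at least 2-fold in 1 direction, at an adjusted p under 0.05, against each of the 5 other lines. It was met by 765 genes that were higher (5.05%) and 683 that were lower (4.51%). In 763 and 680 of them the 3 COLO320 libraries lay outside all 15 others. A call that asks for 2-fold against each line nearly ensures this, so it is no further support. Counts in the gene lists below are to be read beside the shares of all tested genes given here. The same call for the other lines gave 94 genes higher and 97 lower in HCT15, 307 and 121 in HCT116, 394 and 188 in HT29, 574 and 124 in SW480 and 654 and 265 in COLO205. Of the 765 higher genes, 358 had passed the filter on low values only through COLO320 and so had to differ. With the filter passed through another line, 403 genes were set apart and higher. Taking each line rather than each library as 1 value left 278 genes at least 2-fold higher and 150 lower, all of them among the genes set apart.

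**Figure D1:**
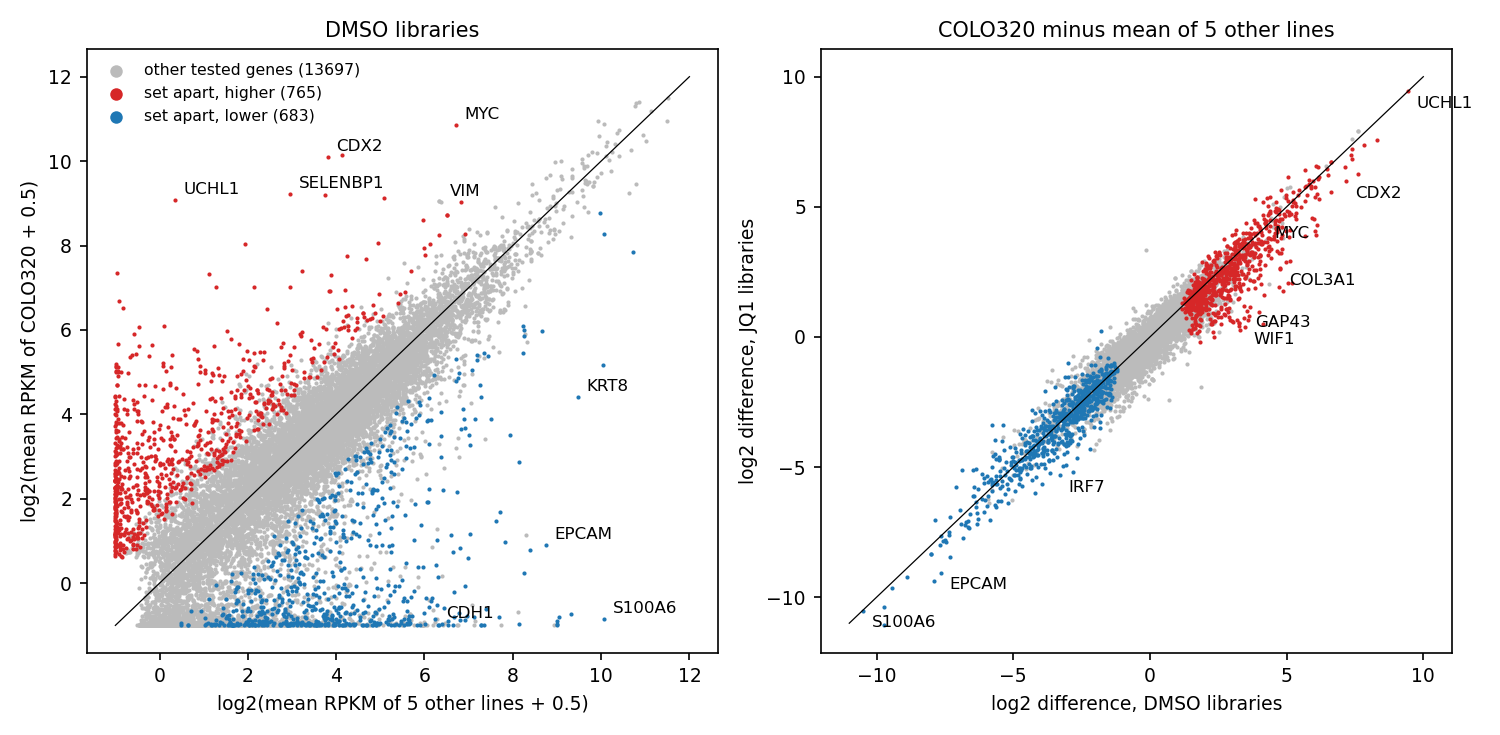
Left, each tested gene's level in COLO320 against the mean of the 5 other lines in DMSO libraries, both as log2 of mean RPKM + 0.5, with the 765 and 683 genes set apart coloured and the line of equality drawn. Right, the log2 difference in DMSO against the same difference in JQ1 libraries. UCHL1, CDX2 and MYC lie far above equality on the left, and EPCAM, CDH1 and S100A6 far below it. On the right most coloured genes follow the line, and WIF1, GAP43 and COL3A1 drop below it.

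The neuroendocrine name was checked first, and of its 9 defining markers UCHL1 alone was set apart and higher. INSM1, a factor of neuroendocrine fate, had 0 reads in the 3 COLO320 libraries, where 3 reads over these libraries would give 0.0125 RPKM. NEUROD1, which acts in the same fate, averaged 0.008 RPKM and stayed under the filter. Chromogranin A (CHGA), a core granule protein, was at 0.1399, 0.1879 and 0.1375 RPKM in the 3 libraries, while SW480 averaged 2.066. Its difference of -0.12 is not stable in sign, being 0.30 with a pseudocount of 0.1 and 0.34 with SW480 left out. NCAM1, an adhesion protein, averaged 0.0868 RPKM against 1.537 in SW480, and its difference of -0.22 turned to 0.17 with SW480 left out. Chromogranin B (CHGB) at 0.8863 RPKM and synaptophysin (SYP) at 1.464 were above the mean of the other lines by 1.00 and 1.01, yet SW480 was higher in both, with 1.754 and 2.433. ENO2, the neuronal enolase, was lower in COLO320, at 7.577 RPKM against 9.286 to 33.99 in the other lines. UCHL1, a neuronal deubiquitinase, had the largest positive difference among the genes with a symbol that were set apart without overlap. Beyond the defining markers, the granule proteins PCSK1N and CPE were 4.77 and 4.24 above the mean of the other lines, though not set apart, as SW480 held 36.7 RPKM of PCSK1N against 35.31 in COLO320 and CPE stood at 18.95 with HCT116 next at 10.45. PCSK1 and CADPS, both under the filter, had 0 reads in COLO320 against 77 and 290 over the 15 other libraries. With markers on both sides, the cells are called here by the name of the line.

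Epithelial markers were mixed, with some nearly absent and others within the range of the other lines. E-cadherin (CDH1) stood at 0.01484, 0.007246 and 0 RPKM in COLO320 and between 13.74 and 145.3 in the 15 other libraries. Villin (VIL1), the brush border actin protein, averaged 0.02998 RPKM against 0.1064 in HCT116 and 138.1 in COLO205, and was not set apart. KRT20, the keratin of mature colon cells, averaged 0.8854 RPKM, above all lines but HT29 with 140.9. Its difference of -0.64 became 0.87 with HT29 left out. CDH17, the intestinal cadherin, was at 2.685 RPKM, between HT29 with 1.458 and HCT15 with 3.301.

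MYC (Entrez 4609) was at 1856, 1834 and 1856 RPKM in the COLO320 libraries. The 15 other libraries ranged from 63.68 to 194.1 with a median of 86.74, and the groups did not overlap. The difference was 4.24 ± 0.016 (SE, adjusted p = 3.81e-26), and its adjusted p over line means was 0.0198. HCT116, at 189.8 ± 5.21 RPKM (SD, n = 3), was the nearest line. These values come from 372280 MYC reads in the 3 COLO320 libraries.

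Genes beside MYC were high with it, over a short stretch. PVT1, the long noncoding RNA gene downstream of MYC (Entrez 5820), read 604.4, 573.5 and 586.2 RPKM, against 2.161 to 23.3 in the 15 other libraries. PVT1 differed by 5.83 ± 0.029 (SE), and its adjusted p was 7.46e-25 over libraries and 0.0822 over line means. LRATD2, upstream of MYC, averaged 556.5 ± 3.55 RPKM (SD, n = 3), with HT29 nearest at 94.7. The noncoding PCAT1 at 4.577 RPKM and the retrocopy POU5F1B at 4.181 were lower in level but 3.19 and 3.10 above the other lines, whose means did not pass 0.1358 RPKM. Both passed the filter only through COLO320, and POU5F1B reads can be shared with its parent gene POU5F1. MIR1204 lies within PVT1, so its 1136 RPKM cannot be told apart from PVT1 transcripts.

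The high stretch had gaps and sharp ends. CCAT1, a colon cancer noncoding RNA gene between PCAT1 and POU5F1B, averaged 0.3278 RPKM. This was 2.25 below the mean of the other lines, though SW480 was lower, at 0.09737. TRIB1, the next tested gene upstream of LRATD2, was 1.91 below the mean at 7.072 RPKM, with HCT15 lower at 5.12. Past MIR1204, CYRIB and ASAP1 were at -0.76 and -0.65, and EFR3A and NDRG1, a stress-responsive differentiation gene, were set apart and lower at -2.47 and -2.67. These flanking genes were chosen for their position after the values were seen. Of 15 tested genes in the list of MYC neighbours, 5 were set apart and higher and 0 lower, with a median of -0.52 beside -0.035 over all tested genes. Of the 11 tested genes centred on MYC, 6 were set apart and higher. Their median of 3.10 is the value of POU5F1B itself and rests on PCAT1, POU5F1B and MIR1204, whose limits are given above. Over 21 genes the median was -0.31.

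CDX2, the homeobox factor of intestinal identity (Entrez 1045), was abundant in COLO320, at a lower level than MYC, and stood alone among its neighbours. Its COLO320 libraries read 1102, 1090 and 1105 RPKM, and the others ran from 0.2132 to 42.39 with HCT15 highest. The difference was 7.18 ± 0.059 (adjusted p = 3.33e-22), and the adjusted p was 0.169 over line means. On one side LINC00543, ATP5F1EP2 and PDX1, a pancreatic and duodenal factor, were at 0.49, -0.56 and 0.95, and PAN3-AS1 and PAN3 on the other side were at -0.012 and -0.24. FLT3, a receptor kinase that lies close by, averaged 0.02756 RPKM and did not pass the filter. Of 14 tested CDX2 neighbours, CDX2 was the 1 gene set apart. The run of 11 genes centred on CDX2 had a median of -0.15.

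**Figure D2:**
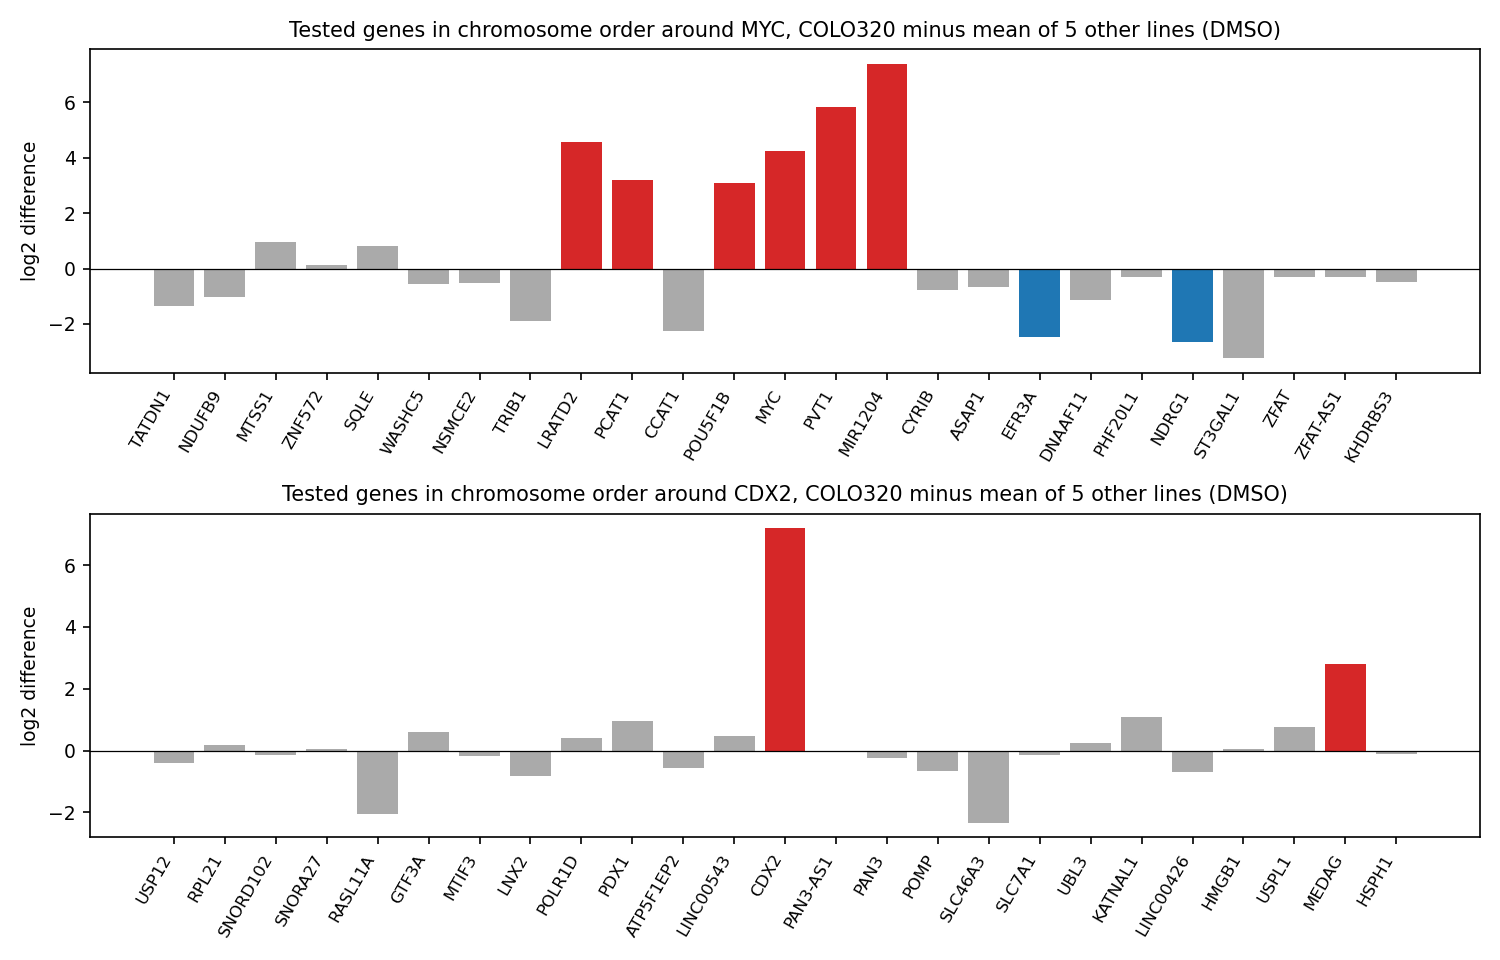
Log2 difference between COLO320 and the mean of the 5 other lines for the 12 tested genes on each side of MYC (top) and CDX2 (bottom), in chromosome order with no distances; red and blue mark genes set apart and higher or lower, grey the rest. Around MYC, LRATD2 to MIR1204 are high with a gap at CCAT1, while around CDX2 the next gene set apart is MEDAG, 11 genes away.

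Partners and known targets of MYC were set apart in counts near the shares of all tested genes, 5.05% higher and 4.51% lower. Of 14 tested genes in the MYC and MAX network, MYC was set apart and higher and MYCL, a MYC paralog, was set apart and lower (0.4459 RPKM, -1.72). Against the mean of the other lines, 4 of the 14 were at least 2-fold higher and 2 lower. The 4 were MYC, MYCN (2.54), MXD4 (2.24) and MXI1 (1.60), and COLO205 held more MYCN, with 15.26 RPKM against 5.663. Of 28 tested MYC targets, 1 was set apart and higher and 0 lower. Against the mean of the other lines 3 were at least 2-fold higher, beside 13.7% of all tested genes. The list median was 0.21. The gene set apart was CCND2, a G1 cyclin, at 59.41 ± 1.27 RPKM (SD, n = 3) against at most 0.8882 in any other library, and it passed the filter only through COLO320. TFAP4, a factor induced by MYC, was 1.19 above the mean at 37.35 RPKM, and ODC1, which makes polyamines, was 1.05 above it at 698 RPKM, but neither was set apart. Nucleolin (NCL) and nucleophosmin (NPM1) differed by 0.04 and -0.16. Of 30 ribosome biogenesis genes 0 were set apart in either direction, and the median was 0.05. A list of this size can hold 0 at the shares given above. IMP4, a component of the small subunit processome, had the largest difference there, 1.17 at 168.6 RPKM. RPKM is relative to each library, so an equal change in all RNA per cell would not show.

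**Figure D3:**
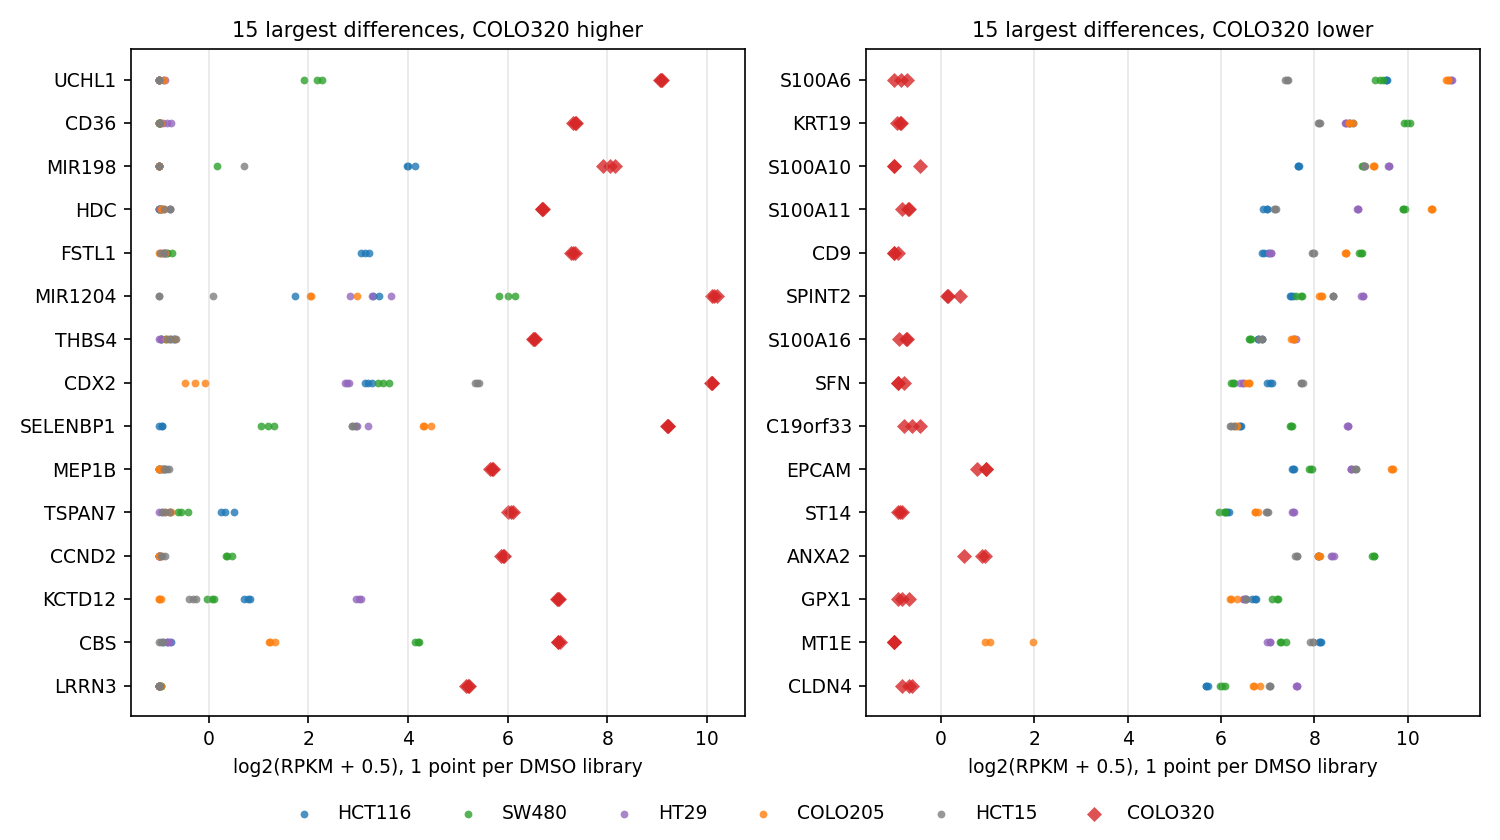
Level of each gene in all 18 DMSO libraries, as log2(RPKM + 0.5), for the 15 largest positive (left) and 15 largest negative (right) differences among genes with a symbol that were set apart without overlap. Red diamonds are COLO320 and circles the other lines. COLO320 diamonds lie apart from every circle in each row.

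The largest positive differences came from genes of several kinds. Of these 15 genes 7 passed the filter only through COLO320 and so had to differ, namely CD36, HDC, THBS4, MEP1B, TSPAN7, CCND2 and LRRN3. UCHL1 (Entrez 7345) was at 546.9, 544.7 and 534.9 RPKM, with 3.882 in SW480 and under 0.02 in the other lines, a difference of 9.44 ± 0.054 (adjusted p = 4.12e-24). CD36, a fatty acid and thrombospondin receptor, averaged 162.5 ± 4.16 RPKM, and THBS4, a thrombospondin, averaged 91.77 ± 1.11, against at most 0.1353 for either in any other library. HDC, which makes histamine from histidine, averaged 103.1 ± 0.638 against at most 0.08397. FSTL1, a secreted follistatin-like glycoprotein, averaged 159.2 ± 3.98, with HCT116 next at 8.282. MIR198 lies in FSTL1 and cannot be told apart from it. SELENBP1, a selenium-binding protein of mature colon epithelium, averaged 595.4 ± 6.36 RPKM, with COLO205 next at 19.97. MEP1B, a brush border protease subunit, averaged 50.63 ± 1.16, and CBS, which makes cystathionine from homocysteine, averaged 129.5 ± 2.33, with SW480 at 17.68. TSPAN7 (66.19 RPKM), KCTD12 (128.9) and LRRN3 (36.2) complete the 15 with CDX2, CCND2 and the host-embedded microRNA genes.

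The largest negative differences were mostly of genes that the other lines express strongly. S100A6, a calcium-binding protein, read 0.05231, 0.1022 and 0 RPKM in COLO320 against 164.9 to 1967 elsewhere, a difference of -10.48 ± 0.039 (adjusted p = 4.22e-26). S100A10, S100A11 and S100A16 were at 0.07768, 0.09863 and 0.0772 RPKM, and differed by -9.74, -9.43 and -7.87. The tetraspanin CD9 averaged 0.00891 RPKM against at least 116.3 in every other library. GPX1, a peroxidase that is nearly ubiquitous, averaged 0.0693 RPKM against 72.26 to 148.7. SFN, the epithelial 14-3-3 sigma, averaged 0.0445 RPKM against 73.34 to 213.9. MT1E, a metallothionein, had 0 reads in COLO320. Taking 3 reads over the 3 libraries as the floor, MT1E was at least 2340-fold lower than the mean of the other lines. Such folds, here and below, use the plain mean of RPKM, in which high lines weigh most. COLO205 held 2.131 RPKM of MT1E and HCT116 held 277.7. MT1E has near-identical relatives that could share its reads.

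Genes of epithelial junctions and keratins were the list with the lowest median. Of 44 tested members, 31 were set apart and lower, 0 higher, and 40 were at least 2-fold lower than the mean of the other lines, with a median of -4.12. EPCAM, the epithelial adhesion molecule, read 1.206, 1.462 and 1.452 RPKM against 183.3 to 819.2 in the 15 others. KRT19 averaged 0.04002 RPKM against 270.6 to 1057 elsewhere, a difference of -9.75. KRT8 and KRT18, the keratin pair of simple epithelia, kept 20.61 ± 0.601 and 35.78 ± 0.822 RPKM (SD, n = 3), which were 4.93 and 4.69 below the other lines. The protease ST14 and its inhibitors SPINT1 and SPINT2 were at 0.0463, 0.2003 and 0.6772 RPKM, all set apart and lower. Claudins CLDN3, CLDN4 and CLDN7 were at most 0.1095 RPKM. Not all members were low, since the desmosomal DSG2 was 1.16 above the mean at 107.7 RPKM, and DSP and PKP2 were 0.26 above it. In bulk samples a smaller share of expressing cells and less RNA per cell cannot be told apart.

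Promoter sequences are shown for this list because so many members were low together. ZEB factors, named further below, are known to bind the E-box CACCTG. Whether they act on these genes was not tested. Windows of 300 bases, from 250 before to 50 after a gene's start, came from RefSeq with build GRCh38.p14, and 13 of the 31 genes set apart had at least 1. CDH1, EPCAM and KRT19 were among those without a window. CACCTG on either strand lay in a window of 10 of these 13 genes (76.9%), of 2748 of 11208 tested genes with a window (24.5%) and of 35.9% of genes set apart and lower. By window the shares were 11 of 21 (52.4%) in this list, 19.2% over all tested genes and 26.6% over genes set apart and lower. This motif was chosen after the data were seen. CLDN7 and CRB3, which encodes an apical polarity protein, had 5 matches in a window, the most among the 13 genes, and KRT8 had 0. CLDN7 has a second window with 0 matches. The shown windows are CLDN7 at chr17:7262429-7262728 on the minus strand, CRB3 at chr19:6464021-6464320 on the plus strand and KRT8 at chr12:52926420-52926719 on the minus strand. Capitals mark CACCTG or, where read on the opposite strand, its reverse complement CAGGTG, and a match is a description, not a bound site.
CLDN7: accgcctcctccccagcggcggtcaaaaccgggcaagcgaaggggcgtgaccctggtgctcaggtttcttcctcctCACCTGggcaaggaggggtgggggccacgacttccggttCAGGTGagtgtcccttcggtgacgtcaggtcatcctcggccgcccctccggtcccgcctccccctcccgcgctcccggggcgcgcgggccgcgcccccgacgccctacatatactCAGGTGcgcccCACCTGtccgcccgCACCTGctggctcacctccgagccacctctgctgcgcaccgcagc
CRB3: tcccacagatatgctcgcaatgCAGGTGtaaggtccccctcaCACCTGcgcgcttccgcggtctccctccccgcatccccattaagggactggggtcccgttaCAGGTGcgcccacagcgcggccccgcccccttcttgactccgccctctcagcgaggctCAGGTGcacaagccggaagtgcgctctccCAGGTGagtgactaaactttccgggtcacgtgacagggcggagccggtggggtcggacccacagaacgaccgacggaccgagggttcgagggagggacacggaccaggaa
KRT8: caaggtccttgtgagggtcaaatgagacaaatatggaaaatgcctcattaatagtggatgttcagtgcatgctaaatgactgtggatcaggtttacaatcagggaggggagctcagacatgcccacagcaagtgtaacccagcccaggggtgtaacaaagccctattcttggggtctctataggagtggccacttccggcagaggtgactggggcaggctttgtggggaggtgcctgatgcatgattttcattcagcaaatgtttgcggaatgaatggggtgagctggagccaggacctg

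Other E-boxes of the frame CANNTG were searched on both strands, and no occurrence counts for more than 1 of them. The form preferred by MYC and MAX, CACGTG, lay in windows of 12.3% of tested genes, 10.6% of genes set apart and higher and 9.66% of those lower. Shares for CAGCTG were 22.3%, 23.1% and 27.3%. Shares for CAGATG were 13.4%, 19.3% and 17%. Among the 13 junction and keratin genes with a window the shares were 23.1% for CACGTG and 15.4% for each of the other planned motifs.

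Mesenchymal genes were higher in part. Of 19 tested members 7 were set apart and higher, 0 lower, with a median of 1.92. Against the mean of the other lines, 12 were at least 2-fold higher and 6 lower. The 3 that passed the filter only through COLO320, ZEB2, TCF4 and PRRX1, are among the 7, and without them 4 were set apart and the median was 1.33. ZEB2, a repressor of epithelial genes, read 6.422, 6.736 and 6.6 RPKM against at most 0.06795 in any other library. Its relative ZEB1 averaged 4.678 RPKM with SW480 next at 1.522. TCF4, a basic helix-loop-helix factor, and PRRX1, a homeobox factor of mesenchyme, averaged 31.99 and 31.35 RPKM against at most 0.09889 elsewhere. Vimentin (VIM), the mesenchymal filament protein, was abundant at 519.9 ± 1.72 RPKM but not set apart, because SW480 held 412.1. The list was not uniform, since MSN and S100A4 stood 4.21 and 5.88 below the mean of the other lines without being set apart, at 0.2631 and 1.708 RPKM. SNAI2 and TWIST1, both under the filter, had 0 reads in COLO320 against 168 and 120 over the 15 other libraries.

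Among intestinal transcription factors CDX2 went the opposite way from most. Of 29 tested members 2 were set apart and higher, CDX2 and HOXB13, and 8 lower, with a median of -2.04. HNF4A, a nuclear receptor of the enterocyte program, averaged 0.01335 RPKM against 1.612 to 38.38 in the 15 other libraries. The epithelial ETS factors ELF3 and EHF averaged 0.01437 and 0.01257 RPKM, differing by -5.23 and -5.67. SOX9, a crypt factor, averaged 3.193 ± 0.226 RPKM with COLO205 nearest at 40.53, and KLF5 averaged 4.135 with HCT116 nearest at 22.82. CDX1, the paralog of CDX2, had 0 reads in COLO320 and also in HCT116, SW480 and HCT15. Of 30 tested enterocyte and goblet genes, 1 was set apart and higher and 2 lower, with a median of -1.37. These counts are near the shares of all tested genes, 5.05% and 4.51%. Against the mean of the other lines, 1 was at least 2-fold higher and 19 lower, beside 13.7% and 15.9% of all tested genes. Set apart and higher was FABP2, an intestinal fatty acid binding protein at 2.522 RPKM that passed only through COLO320. Set apart and lower were LGALS3 (0.08632 RPKM) and TSPAN1 (0.04323).

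Of 43 tested genes of the YAP and AP-1 axis, 15 were set apart and lower and 0 higher, with a median of -1.96. YAP1, a Hippo pathway coactivator, was at 19.63 RPKM and not set apart, and its paralog WWTR1 was 2.06 above the mean. Genes known as outputs included ANXA3 at 1.002 RPKM, 6.36 below the other lines, and ANXA2 at 1.23, 7.51 below. FOSL1, an AP-1 subunit, averaged 0.07756 RPKM and differed by -5.74. TNS4, a focal adhesion protein, had 0 reads and was at least 9220-fold lower than the mean of the others. That mean spans 6.242 RPKM in HCT15 to 242.1 in COLO205. S100A6, S100A10 and S100A11 also belong to this list, so it overlaps with the largest negative differences.

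Genes induced by ERK signalling were low as well. Of 26 tested members 13 were set apart and lower and 1 higher, with a median of -3.16. DUSP6, a phosphatase that acts on ERK, read 0.7982, 0.8537 and 0.8594 RPKM against 4.307 to 275.1 in the other libraries. PHLDA2, IER3 and PHLDA1 differed by -6.72, -5.47 and -5.33, and LGALS1 by -5.20. EREG, an EGFR ligand, had 0 reads and was at least 7760-fold lower than the mean of the others. That mean spans 1.13 RPKM in SW480 to 226.9 in HCT116. Cyclin D1 (CCND1) averaged 6.867 RPKM with COLO205 nearest at 30.32, opposite to CCND2. The gene that was higher was DUSP2, at 16.73 RPKM and 1.42 above the mean.

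Among 28 tested receptor tyrosine kinases, 2 were set apart and higher and 5 lower, with a median of -0.53. EGFR read 0.01631, 0.00531 and 0.005345 RPKM, against 5.198 to 20.62 in the other libraries, a difference of -4.41 ± 0.029 (adjusted p = 1.95e-23). ERBB3 at 0.1858 RPKM, MST1R at 0.01227, EPHA1 at 0.01054 and DDR1 at 5.555 were the others set apart and lower. KIT, the receptor for stem cell factor, averaged 8.05 ± 0.126 RPKM and PDGFRB averaged 1.182, and both passed the filter only through COLO320.

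Wnt targets and stem cell genes were mixed. Of 27 tested members 3 were set apart and higher and 1 lower. NOTUM, a secreted Wnt deacylase, averaged 90.22 ± 3.09 RPKM with SW480 next at 14.34. LEF1, a DNA-binding partner of beta-catenin, averaged 70.84 ± 0.525 with SW480 next at 13.77. WIF1, a secreted Wnt inhibitor, averaged 5.143 RPKM and passed only through COLO320. BMP4 was set apart and lower at 3.986 RPKM. AXIN2, a feedback target, was at 118.8 RPKM, below SW480 with 193, and APCDD1 at 191.9 RPKM was likewise below SW480 with 227. These last 2 genes were picked after their values were seen.

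HOX genes, which record position along the body axis, split by cluster. Of 37 tested members 9 were set apart and higher and 8 lower. HOXC12, HOXD1, HOXD3 and HOXD4 passed the filter only through COLO320, and without these 4 genes 5 were set apart and higher. HOXA3, HOXA7, HOXA9, HOXA10 and HOXA11 were set apart and lower, as were HOXB4, HOXB7 and HOXB9. HOXC11, HOXC12, HOXC13, HOXD1, HOXD3, HOXD4, HOXD8 and HOXD13 were higher, and so was HOXB13. HOXD13 averaged 41.61 ± 0.776 RPKM with SW480 next at 1.537, and HOXC12 averaged 31.79 ± 2.39 against at most 0.2207 in any other library. In the opposite direction HOXB9 averaged 0.2913 RPKM against 1.301 to 115.4, and HOXA10 averaged 0.4903 against 6.204 to 43.45. HOXA13 and HOXB13, at the posterior end of the low clusters, were above the mean of the other lines.

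**Figure D4:**
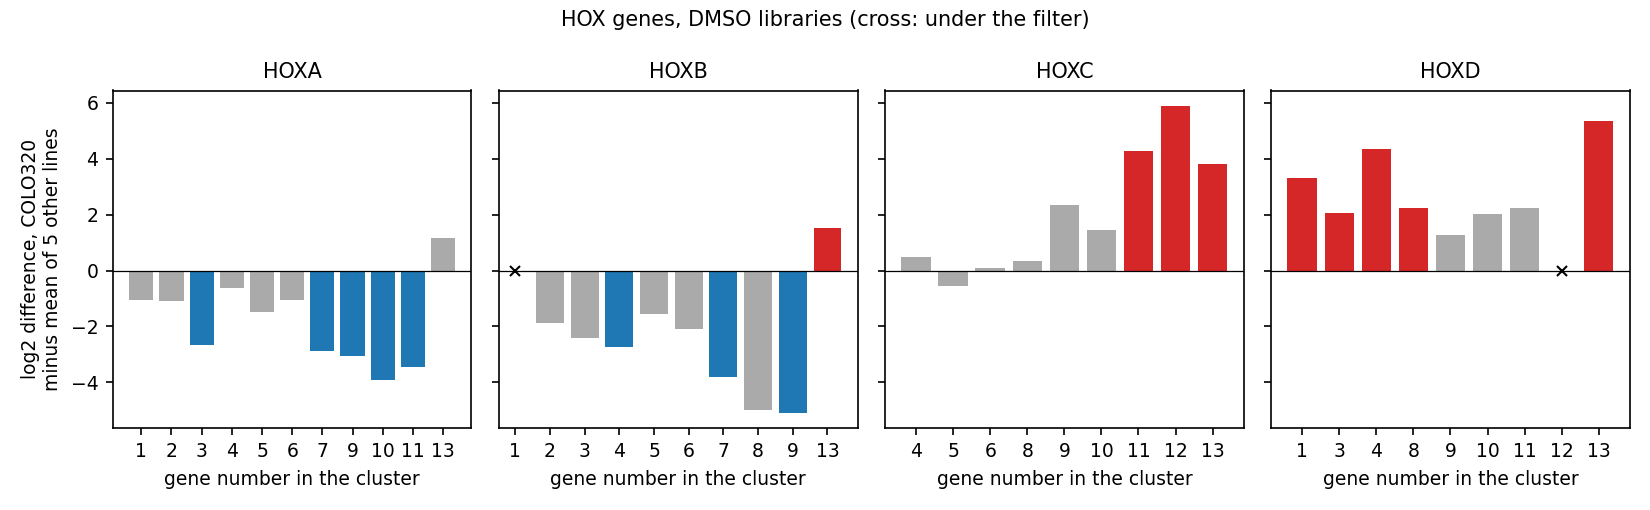
Log2 difference between COLO320 and the mean of the 5 other lines for the HOX genes of the 4 clusters, numbered as in the gene names; red and blue bars are set apart and higher or lower, grey bars are not set apart, and crosses did not pass the filter. HOXA and HOXB bars point down except number 13, and HOXD bars point up.

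The HOX clusters also appeared among runs of 11 neighbouring tested genes, where the 1st percentile of run medians was -1.45. After the run at MYC, the next highest medians were on chromosome 1 from C1orf54 to GOLPH3L with MCL1 inside (2.67), in HOXC on chromosome 12 (2.35), in HOXD on chromosome 2 (2.23) and on chromosome X from HMGN5 to PCDH19 (1.97). The lowest were the UGT1A genes on chromosome 2 (-4.58), FOXQ1 to NQO2 on chromosome 6 (-2.99), HOXA on chromosome 7 (-2.88), the S100A genes on chromosome 1 (-2.56) and HOXB on chromosome 17 (-2.43). UGT1A genes share exons, so reads of 1 cannot be told apart from those of another. In the JQ1 libraries the same 10 runs kept their sign, with medians of 1.85 at MYC and 2.50 around MCL1.

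Secretory granule and synaptic genes gave 7 set apart and higher and 0 lower of 27 tested, with a median of 0.42. Against the mean of the other lines, 12 were at least 2-fold higher and 6 lower. The 4 that passed only through COLO320, among them SNAP25, ELAVL2 and GAP43, all belong to the 7. Without them 3 were set apart and the median was -0.12. Besides UCHL1 the 7 included SNAP25, a fusion protein of synaptic vesicles (30.94 ± 1.26 RPKM), the vesicle protein SV2A (35.05 ± 1.13), ELAVL2 (20.16 ± 0.379) and GAP43 (5.601 ± 0.608). Of 10 tested neuroendocrine transcription factors, of 30 listed, 0 were set apart in either direction in limma, while 3 were at least 2-fold higher and 3 lower than the mean of the other lines. The pioneer factor FOXA2 had 0 reads in COLO320, and POU4F1 averaged 1.659 RPKM. Of 9 tested hormones and amine synthesis genes, the peptides NMU and ADM were set apart and lower, at 0.4762 and 0.3409 RPKM.

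Oncofetal and cancer-testis genes gave 4 set apart and higher of 14 tested, or 2 without MAGEA6 and GPC3, which passed only through COLO320. The list median was -0.28. Against the mean of the other lines, 6 members were at least 2-fold higher and 3 lower. The 4 set apart were MAGEA12 (40.97 RPKM), MAGEA6 (19.15), the imprinted PEG10 (45.04) and the glypican GPC3 (6.25). MAGEB2 had 0 reads in COLO320 against 15586 over the 15 other libraries. MAGEA copies are nearly identical, so counts between them are uncertain. MAGEA3 averaged 0.04775 RPKM in the same libraries.

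Of 28 tested p53 targets and CDK inhibitors 4 were set apart and lower and 0 higher. CDKN1A, which encodes the p21 inhibitor, averaged 0.1126 ± 0.044 RPKM with COLO205 nearest at 2.109. The secreted GDF15 averaged 0.009692 RPKM and differed by -5.51, and TP53I3 differed by -2.50. PHLDA3 had 0 reads and was at least 1010-fold lower than the mean of the others. That mean spans 5.981 RPKM in COLO205 to 86.19 in SW480.

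Antigen presentation and interferon genes gave 3 set apart and higher, 1 of them (HLA-DRA) passing only through COLO320, and 5 lower of 29 tested, with a median of -1.16. HLA-C averaged 1.742 ± 0.236 RPKM against 30.56 to 220.9 elsewhere, and HLA-E averaged 7.411 with HCT15 nearest at 25.12. B2M, the shared light chain, was at 318.5 RPKM and was not set apart. HLA genes vary between people and resemble each other, so their counts depend on how reads were placed. IRF7 and ISG15 were lower, at 0.1929 and 6.055 RPKM, while IFITM1 at 30.77 RPKM and IFIT1 at 4.711 were higher. Of 27 tested NF-kB and innate sensing genes 4 were set apart and lower and 0 higher, among them the adaptor MYD88 (0.1471 RPKM, -4.58) and the pore-forming GSDMD (0.109 RPKM, -4.75).

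Drug efflux and detoxification genes gave 1 set apart and higher, GSTA4 at 21.96 RPKM, and 4 lower of 25 tested. NQO1, a quinone reductase, averaged 10.84 ± 0.307 RPKM with SW480 nearest at 85.08, and MGST1 and ABCC3 averaged 0.0546 and 0.004466. The efflux pump ABCB1, named after its values were seen, was high at 71.59 RPKM but shared this with HCT15 at 65.42. Of 20 tested BET bromodomain and elongation genes 0 were set apart in either direction, and 1 was at least 2-fold higher and 1 lower than the mean of the other lines. Of 12 housekeeping genes, YWHAZ was set apart and lower at 43.67 RPKM, and ACTB, at 698, was 1.28 below the mean.

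**Figure D5:**
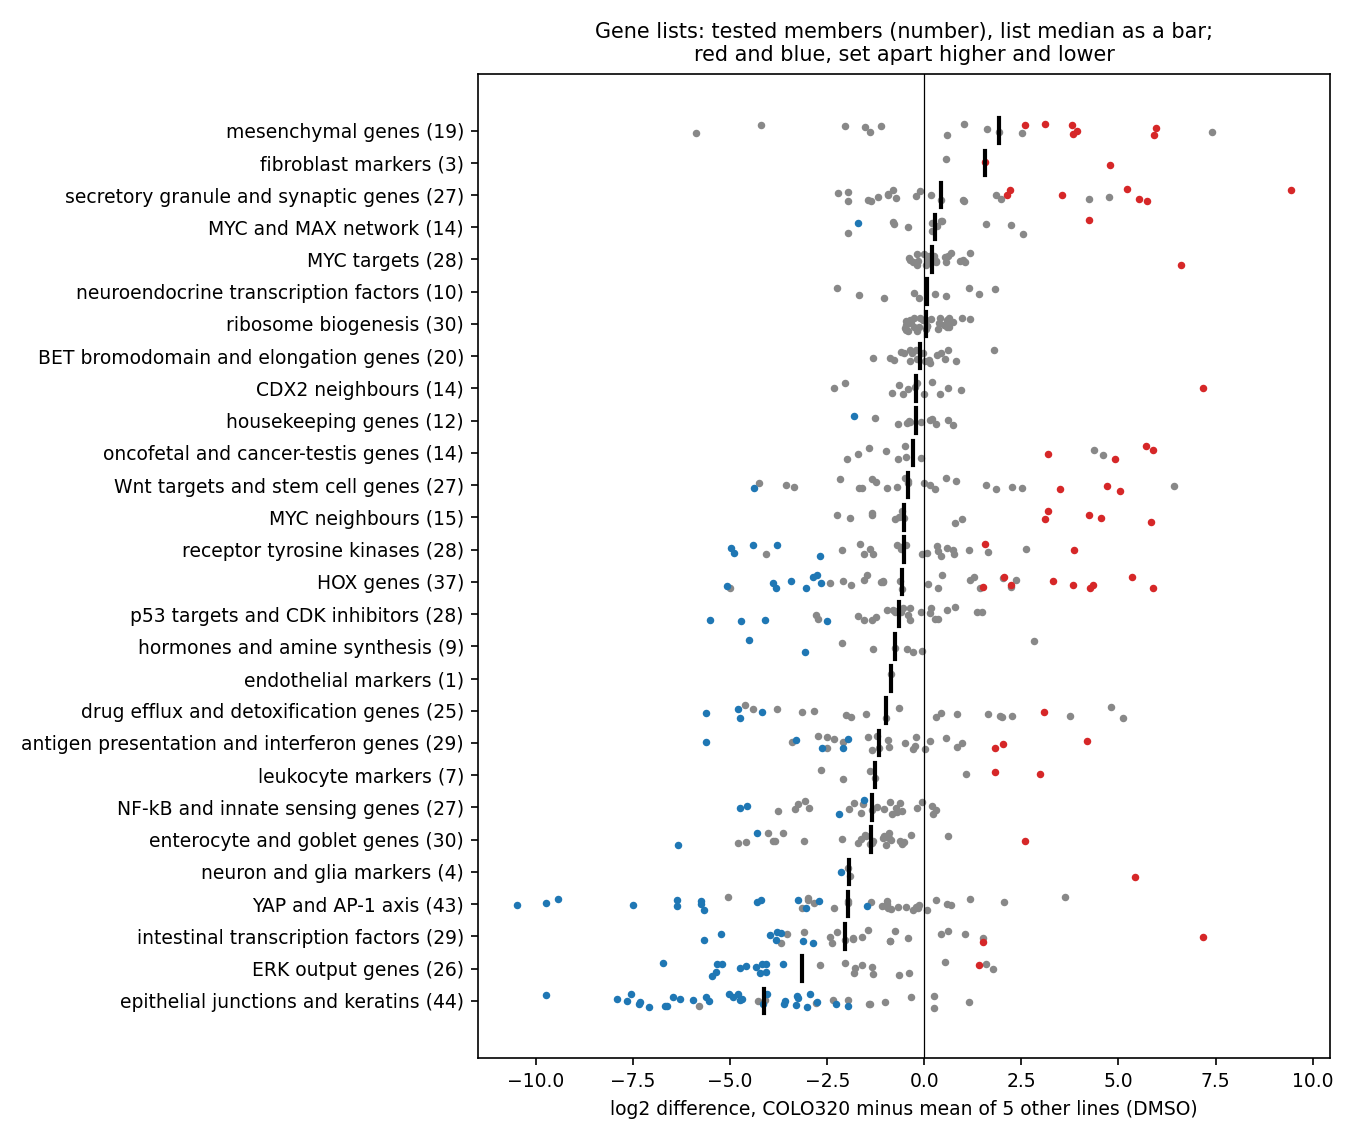
Log2 difference of every tested member of the 28 gene lists, ordered by list median (black bar), with the number of tested members in brackets; red and blue points are set apart and higher or lower. The junction and keratin list lies lowest and the mesenchymal list highest, while MYC targets and ribosome biogenesis genes gather near 0.

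Markers of cell types that a colon line should lack gave mixed values. Summed over 10 fibroblast markers, COLO320 libraries held 15.52 to 15.79 RPKM against 0.2926 to 2.37 in the 15 others. COL3A1, which passed only through COLO320, gave 13.2 of it. COL1A2 and DCN had 0 reads, with 3 and 2 over the 15 other libraries. Summed over 17 leukocyte markers the COLO320 libraries held 12.98 to 13.34 RPKM, within 6.335 to 417.3 in the others. Of 7 tested leukocyte markers, 3 were at least 2-fold above the mean of the other lines and 4 below it. Their median was -1.27. PTPRC, the leukocyte phosphatase CD45, averaged 3.479 RPKM and CD4 averaged 1.572. Both were set apart and higher after passing only through COLO320. CD3D had 0 reads, with 5 over the 15 other libraries. Of 4 tested neuron and glia markers, 1 was at least 2-fold above the mean of the other lines and 3 below it. Their median was -1.94. NEFL, a neurofilament that likewise passed only through COLO320, averaged 21.14 RPKM with 0 in all 15 other libraries. GAD1 was set apart and lower, at 0.2113 RPKM with HCT116 nearest at 1.389. S100B had 0 reads, with 1 over the 15 other libraries. Summed over 13 such markers COLO320 held 25.96 to 27.26 RPKM, within 13.3 to 66.71 in the others, and over 7 endothelial markers 1.313 to 1.627, within 0 to 29.08. The part of such cells in the differences was not tested.

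The genes whose levels over the 6 line means were most like MYC were SPAG17 (r = 0.995), TOP1MT (0.994), ST6GALNAC3 (0.992), P2RY1 (0.991) and OTUD7B (0.991). With 6 points and COLO320 far above the rest, these are descriptions.

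In the JQ1 libraries, none of which had entered the baseline contrast, the same rule set apart 670 genes as higher (4.42%) and 750 as lower (4.95%). Of the baseline genes, 559 of 765 higher and 570 of 683 lower were set apart again. The sign was kept by 763 of the 765 and 682 of the 683. MYC averaged 1176 ± 6.77 RPKM in COLO320 with JQ1 and differed by 4.45 from the other lines there, beside 4.24 in DMSO. CDX2 averaged 847.5 ± 17 RPKM, with a difference of 5.998 beside 7.18. UCHL1 differed by 9.44 in both sets. The junction list had 28 of 44 set apart and lower with a median of -4.36, and the ERK list 15 of 26 with -3.43. EPCAM stood at 0.07135 RPKM with JQ1 and at 1.373 in DMSO.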

How the data were processed

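RNA sequencing values of 6 colon cancer lines in DMSO or JQ1 were taken as deposited. RPKM per gene was computed by the authors, and the submitters' processing notes name GSNAP, DESeq and limma, for which no version is given in the sources used here. They also name the build NCBIM37, a mouse assembly name, although the genes carry human Entrez numbers. Symbols came from RefSeq for GRCh38.p14 (24519 of 26468 genes). All 36 columns matched a sample by its label, with 0 left over. Reads recovered from the RPKM steps were whole, within 0.001 read, for 23499 of 23499 genes above 0, and served for depth, floors of 3 reads (counting error only) and an alternative fit. Whether reads kept strand is not given, so antisense partners cannot be told apart. Replicate pairs differed beyond sampling noise (chi-square per gene 1.22 to 3.2 over 18 pairs).

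limma 3.58.1 (R 4.3.3) was fitted to log2(RPKM + 0.5) of 18 DMSO libraries in 6 groups, with moderated variances, a mean-variance trend, two-sided tests and Benjamini-Hochberg adjustment over 15145 genes. Degrees of freedom were 12 residual plus 2.99 prior. The model was tested on simulated data and repeated on the 18 JQ1 libraries. Tables and figures used Python 3.11.15, numpy 2.4.6, pandas 2.3.3 and matplotlib 3.10.9. Alternatives were the pseudocount, the filter, scaling, the divisor, voom, the unit, the lines in the reference and single libraries left out. The members and gene lists were chosen with earlier results of these data known. Genes are named by rule: MYC, PVT1, CDX2, FLT3, label markers, the 15 largest differences each way among genes set apart without overlap (leaving out sex-linked RNA markers), up to 6 set apart per list, or the 2 largest where fewer than 2 were, and the 5 most like MYC. Others are named as examples chosen after their values were seen. Listed symbols without a match were CASC11, TMEM75, CCDC26, PRNCR1, MUC5AC and TDGF1. A few members of these lists are counted but not reported here by name.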

Additional observations from a re-analysis of the deposited data

Results flagged for a closer look

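The difference between COLO320 and the other lines changed with JQ1, by an interaction term in limma over all 36 libraries, by at least 4-fold in 4 of 139 tested named genes. Genes were named largely for their DMSO values. The share of all tested genes that meet this rule is not given here, so the count has no background. WIF1 went from 5.143 RPKM in COLO320 with DMSO to 0.156 with JQ1, and its difference changed by -3.11 (adjusted p = 5.013e-27). GAP43 went from 5.601 to 0.5292 RPKM, a change of -2.53 (adjusted p = 7.099e-22). COL3A1 went from 13.2 to 2.647 RPKM, a change of -2.12 (adjusted p = 7.303e-29). WIF1, GAP43 and COL3A1 had passed the filter only through COLO320. The other lines averaged 0.001052, 0.02445 and 0.001866 RPKM of them in DMSO and 0.0005675, 0.008448 and 0 with JQ1. For these genes the change is thus the drop within COLO320. For IRF7 the change of -2.01 (adjusted p = 1.506e-19) came with 0.1929 and 0.1647 RPKM in COLO320, while the mean of the 5 other lines went from 7.268 to 28.77.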

How the results depend on the processing

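With the filter passed through another line 403 genes were set apart and higher, and voom on recovered reads gave 1130 lower. Asking for 4-fold gave 340 higher, 303 lower and 496 set apart in both DMSO and JQ1. Taking each line as 1 value, 278 genes were higher and 150 lower, 1890 had an unadjusted p under 0.05, and 82 named genes lost their call. CHGA turned positive with a pseudocount of 0.1 (0.301), quantile scaling (0.145), voom (1.711) and SW480 left out of the reference (0.343). NCAM1 did so with quantile scaling (0.032), voom (1.563) and SW480 left out (0.170), and KRT20 with voom (0.366) and HT29 left out (0.873). Leaving out single libraries gave 2054 to 2084 genes higher and 2404 to 2421 lower by 2-fold, 759 to 770 and 677 to 690 set apart, and 1126 to 1131 set apart in both treatments.

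With the replicate block 765 and 683 genes were set apart, and 1448 were shared with the fit without it. Same-numbered libraries did not deviate together (r of -0.064 to 0.085 over 45 pairs), so the numbers were not taken as pairs. Scaling moved the median difference of all genes from -0.035 to at most 0.034. Setting genes at 0 reads to their floor moved no list median by more than 0.107. Genes near the floor of 3 reads are limited by depth.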
